A study of Citrus unshiu with 2 samples.

Results

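Among the 82479 CHH differential regions that the authors listed between drought-treated and normally watered satsuma mandarin shoots, 57 were annotated as lying both in the promoter of one gene and in the downstream flank of another, and in no UTR, exon or intron. They were taken from the authors' deposited CHH table, each region once by its position, and only these 57 name both features. The study holds 2 whole-genome bisulfite sequencing libraries from shoots (mature stems) of Citrus unshiu. One library comes from trees under light drought, which were left until the soil held around 15% moisture in a treatment of 75 days. The other comes from trees under normal water, and 20 trees were assigned to each condition. All trees were potted in a rain-proof tunnel. The number of trees behind each library is unknown here.

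Bisulfite turns unmethylated cytosines into thymine in the read, so the cytosines that remain are taken as methylated. CHH is the context in which the cytosine is followed by no G in the next 2 positions (H is A, C or T). In plants such sites cannot be copied symmetrically at replication. Their methylation is placed anew by RNA-directed DNA methylation, in which small RNAs guide the methyltransferase DRM2, mostly at transposons near genes, and by CMT2, mostly in long transposons of heterochromatin. In maize, short peaks of CHH methylation beside genes are known as CHH islands. The genes here carry identifiers only. None of the 116 genes beside the regions matched the RefSeq gene table of the species, so no name or function is given for them.

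Each group is 1 library, so there is no spread between replicates, and no test between the conditions was made. Every difference is in percentage points, as light drought minus normal water, and "higher" and "lower" describe these 2 libraries. The read depth behind the levels is unknown, since the tables give levels without counts. The regions had been listed because the libraries differed there, by the authors' uncorrected p-value under 0.05. The size and direction of their differences are therefore descriptions. The flank levels of the genes come from the same libraries and include the region itself, so they are not independent of it.

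The regions crossed a border between a promoter and a downstream flank. In 56 of the 57, the bases in the promoter and the bases in the downstream flank summed exactly to the length of the region, and in no region did they sum to more. No base was therefore counted in both features. The exception was the region between Cs7g21070 and Cs7g21080, where 11 bp lay in the promoter and 39 bp in the downstream flank of an 85-bp region. Promoters of different genes were treated otherwise. Of the 997 CHH regions that lay in the promoters of 2 or more genes and in no other feature, 996 had overlaps that summed to more than their length.

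Where it could be read, the border lay about a promoter's length from the gene on the promoter side. The side on which each gene lies was read from the other differential regions of the same genes in the authors' CG, CHG and CHH tables, which gave an orientation for 45 regions and none for 12. In 19 of the 45, other regions in both flanks pointed to a side, and in 0 of these did they differ. In the other 26 the side rests on 1 clue, so that the regions behind it lie on that side by construction. In the 19 pairs with both clues, 43 of 44 other promoter regions lay wholly on the promoter side and 42 of 43 other downstream regions wholly on the downstream side. The side was set from the mean position of regions that include these, so these counts too follow largely from how it was set. The region left over is the same CHG region in both counts, between Cs5g28930 and Cs5g28920, and crosses the border. Over all 45, other promoter regions reached up to 2060 bp from the border. No exon, intron or UTR region of the gene on the promoter side lay nearer than 1968 bp, over 7 genes that had one. A CG region crossed from the promoter of Cs5g26260 into its 5' UTR, and it placed the start of that transcript 2000 bp from the border. The same region gave the 2060 bp and the 1968 bp above, as its far and near ends, so these values are not separate readings. Its part beyond 2000 bp lay in the 5' UTR. The promoter was also 2000 bp long in the 3 other transcripts whose start and outer edge were both crossed by a listed region. They were Cs3g03710.1, Cs5g29130.1 and Cs5g29130.2, and the last pair belong to the same gene. The regions had been taken to mark short gaps between neighbouring genes. A distance between listed regions in the bodies of both genes, across the border, could be read for 1 pair, Cs7g23590 with Cs7g23580, at 3720 bp. For most pairs the length of the gap could not be read, so the data do not show that the gaps are short. Over the 3 contexts, listed regions wholly in 1 promoter spanned at most 1963 bp (12437 transcripts). Those wholly in 1 downstream flank spanned at most 1989 bp (7763 transcripts). If the flanks here are of such lengths, genes on opposite sides of the border lie at most about a promoter and a downstream flank apart.

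On the other side, other downstream regions reached up to 1683 bp from the border. Listed regions in exons, introns or UTRs of the gene on that side came as near as 458 bp, at Cs5g28400. For 20 pairs the position of the gene on the downstream side could be read from its own body or promoter regions. In 17 of them it lay across the border from the gene on the promoter side, so that both genes are transcribed in the same direction, one after the other. In 3 pairs it lay on the promoter side, within or beyond the promoter of the other gene, so that the genes point in opposite directions. These 3 pairs, named after their positions were seen, were Cs4g10350 with Cs4g10360 and Cs4g10370, Cs4g14780 with Cs4g14790, and Cs4g15390 with Cs4g15380. Cs4g10360 and Cs4g10370 were placed together, by body and promoter regions each listed for only a single gene of them. The position and direction of each of them were therefore not read separately. In the pairs of Cs4g10350 and Cs4g14780, listed exon regions of a gene on the downstream side lay within 2000 bp of the border on the promoter side. They reached up to 1088 bp and 855 bp from the border, so the genes that hold them lie close to the gene on the promoter side. The gene numbers followed the order of the sides in 44 of the 45 oriented pairs, and the exception was orange1.1t02539 with orange1.1t05868 on the unplaced sequence.

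**Figure D1:**
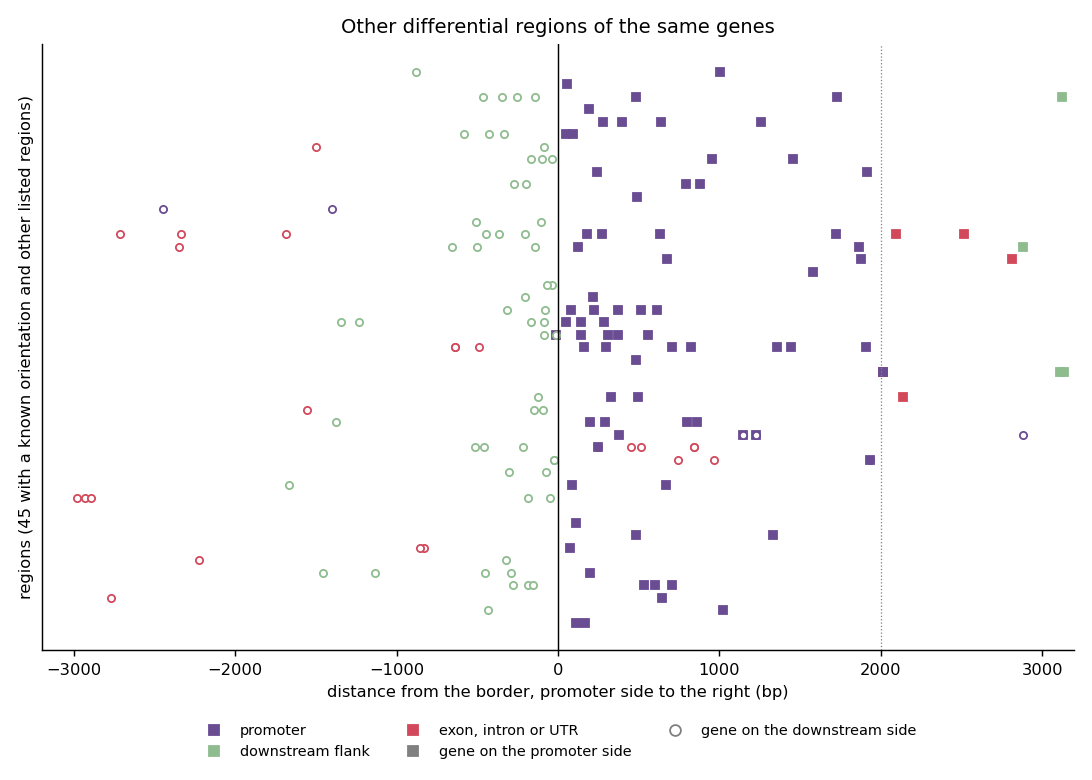
Position of the other listed CG, CHG and CHH regions of both genes, in bp from the border, with 1 row for each of the 45 oriented regions, squares for the gene on the promoter side (right), open circles for the gene on the downstream side, purple for promoter, green for downstream flank and red for exon, intron or UTR. The promoter squares fill the range from the border to about the dotted line at 2000 bp, and regions beyond the axis are not drawn.

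Most of the crossing regions had more CHH methylation under light drought. By the authors' deposited table, light drought had the higher level in 51 of the 57 regions (89.5%) and the lower level in 6, while 80.2% of all CHH regions in the list were higher and 19.8% lower. Among regions in promoters only, 82.4% of 14067 were higher, and among regions in downstream flanks only, 81.5% of 9289. Nothing is read from these shares about the border regions as a class, because the list was chosen on the same contrast and was not tested against the rest.

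Differences spanned from -34.6 to 56.0 points, with a median of 19.6 and quartiles of 13.1 and 26.0 points. The median over all CHH regions was 17.0 points. The 51 higher regions had a median of 20.4 points, next to 20.4 in promoter-only and 19.9 in downstream-only regions. The 6 lower regions had a median of -21.7 points. Differences of at least 20 points in size were found in 32 regions, or 56.1%, of which 28 were higher and 4 lower. This size was passed by 43.3% of all listed CHH regions, 47.9% of promoter-only and 46.0% of downstream-only ones. Only 2 of the higher regions differed by less than 10 points.

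The regions were short. Their median length was 71 bp (quartiles 46 and 100 bp, range 22 to 274 bp), and they covered 4458 bp in all. They held a median of 12 CHH cytosines, from the list's minimum of 10, found in 27 regions, up to 31. All listed CHH regions had a median length of 47 bp and a median of 10 cytosines. Length is not independent of how the regions were chosen, since a longer region reaches a border more often. The median density was 19.2 CHH cytosines per 100 bp, compared with 25 over all CHH regions. A median of 37 bp lay in the promoter and 24 bp in the downstream flank. The larger part was promoter in 30 regions and downstream flank in 27, and in 18 regions one of the sides held at most 5 bp.

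They were spread over all 9 numbered chromosomes, from 1 region on chromosome 8 to 10 on chromosome 7, with 8 on the unplaced sequence. The share on the unplaced sequence was 14.0%, next to 27.9% for all CHH regions, 19.4% for promoter-only and 23.0% for downstream-only ones. No pair of genes held more than 1 of the regions. The 6 lower ones lay on chromosomes 2, 5 (2 regions) and 7 (2 regions) and on the unplaced sequence.

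**Figure D2:**
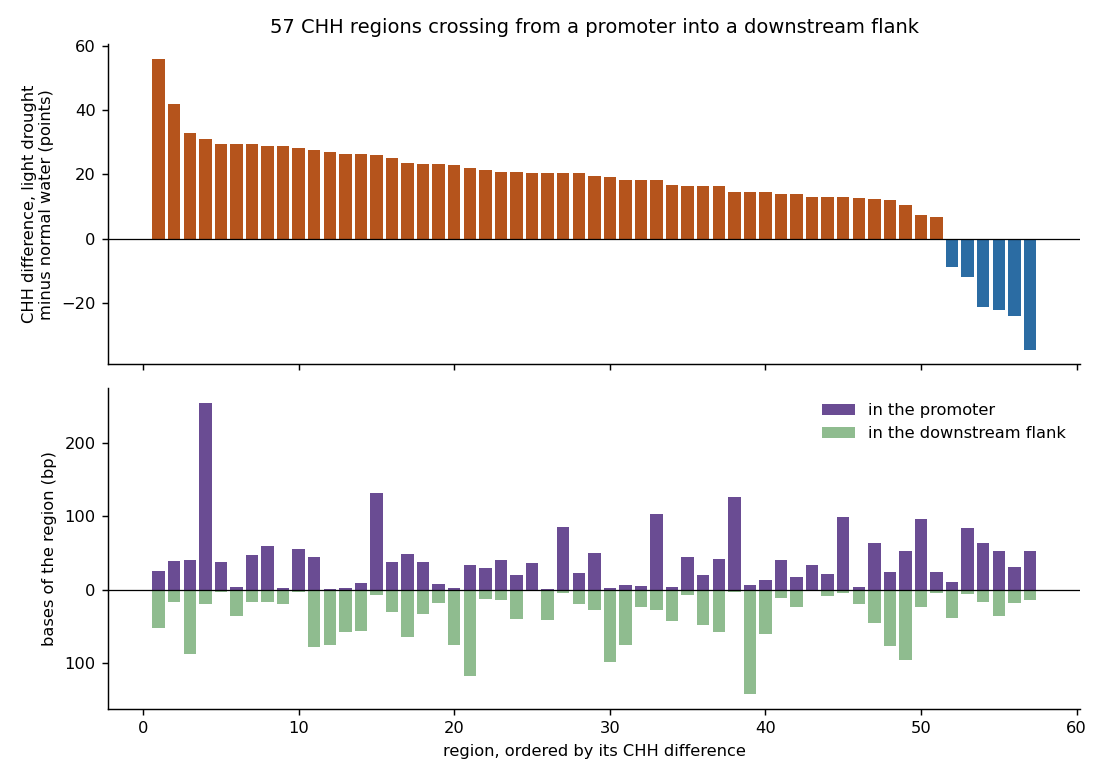
Top, CHH difference of each of the 57 regions in percentage points (light drought minus normal water, the authors' values), ordered from 56.0 to -34.6, with higher regions in orange and lower ones in blue. Bottom, for the same regions, the bases that lie in the promoter (up) and in the downstream flank (down), in bp.

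The largest difference was found between Cs5g28930 and Cs5g28920. In the authors' deposited table the region at chromosome 5, 31168802 to 31168879, held 16 cytosines. Coordinates are those of the table, whose genome build is not stated. Its difference was 56.0 points, with a corrected p-value of 0.0450. Of its 78 bp, 26 lay in the promoter of Cs5g28930 and 52 downstream of Cs5g28920. In CHH the promoter stood at 5.5% in the light drought library and 0.96% in the normal water library. The downstream flank stood at 17.5% in light drought and 4.89% in normal water. Both flanks were also higher in the other contexts. In CHG the promoter stood at 20.0% in light drought against 5.36% in normal water, and the downstream flank at 21.3% in light drought against 2.50% in normal water.

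At this site a CHG region was listed as well. It ran from 31168817 to 31168865 of chromosome 5, lay wholly inside the CHH region, and was higher by 55.3 points in light drought in the authors' deposited table. This CHG region held 10 cytosines, and its corrected p-value was not under 0.05. The bodies of both genes carried at most 0.68% CHG and 0.61% CHH in either library.

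The region with the lowest p-value was also the longest. At chromosome 1, 19091440 to 19091713, it held 31 cytosines over 274 bp, of which 254 lay in the promoter of Cs1g15990 and 20 downstream of Cs1g16000. The authors' deposited table gives it a difference of 31.0 points, an uncorrected p-value of 2.09e-09 and a corrected p-value of 0.0211. The promoter of Cs1g15990 stood at 10.4% CHH in light drought and 3.90% in normal water. The downstream flank of Cs1g16000 stood at 0.73% in light drought and 0.39% in normal water, so it held little CHH methylation in either library. These were the only 2 of the 57 regions with a corrected p-value under 0.05, next to 0.27% of all CHH regions. In 45 of the 57 the corrected p-value was 1.

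Between Cs7g09950 and Cs7g09960, at chromosome 7, 6388635 to 6388690, the authors' deposited table gives a difference of 42.0 points over 13 cytosines. The promoter there held 7.92% CHH in light drought against 2.44% in normal water, and the downstream flank 11.5% in light drought against 5.06% in normal water. A further CHH region began or ended 6 bp away and was higher by 46.2 points. Between Cs3g15540 and Cs3g15530, at chromosome 3, 19607020 to 19607146, the region was higher by 32.8 points over 22 cytosines. There the downstream flank of Cs3g15530 stood at 82.4% under light drought and 49.8% under normal water, the largest difference of any flank beside these regions (32.6 points). The promoter of Cs3g15540 on the other side stood at 9.42% in light drought and 5.99% in normal water.

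On chromosome 9 a pair of regions with low p-values lay almost wholly in promoters. The region between Cs9g04950 and Cs9g04960, at 2848515 to 2848555, had 38 of its 41 bp in the promoter and was higher by 29.4 points, with an uncorrected p-value of 7.40e-07 in the authors' deposited table. The promoter of Cs9g04950 was rich in CHG in both libraries, at 83.8% in light drought and 82.3% in normal water, and its CHH level was 17.8% in light drought and 16.2% in normal water. The region between Cs9g06490 and Cs9g06500, at 3985229 to 3985286, had 55 of 58 bp in the promoter and was higher by 28.3 points, with an uncorrected p-value of 8.18e-06 in the authors' deposited table. Its promoter stood at 12.5% in light drought and 10.8% in normal water, while the downstream flank of Cs9g06500, which held only 3 bp of the region, stood at 44.4% in light drought and 30.5% in normal water.

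The next longest regions, at 151 and 149 bp, lay mostly in the downstream flank. Between Cs7g12600 and Cs7g12610, at chromosome 7, 8562037 to 8562187, 117 of 151 bp lay in the downstream flank, and the difference was 21.9 points over 10 cytosines. That downstream flank held only 1.52% CHH in light drought and 1.16% in normal water, while the promoter of Cs7g12600 stood at 29.8% in light drought and 25.8% in normal water. Between Cs4g14780 and Cs4g14790, at chromosome 4, 13171044 to 13171192, 142 of 149 bp lay downstream of Cs4g14790 and the difference was 14.6 points. The promoter of Cs4g14780 was at 14.8% under light drought and 4.08% under normal water, and the downstream flank at 24.8% in light drought and 19.9% in normal water.

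The 6 lower regions lay in flanks that were, for the most part, not lower. The most negative, between Cs5g28390 and Cs5g28400 at chromosome 5, 30711607 to 30711672, differed by -34.6 points over 10 cytosines. Its promoter was at 13.3% under light drought and 11.6% under normal water, and its downstream flank at 47.9% in light drought and 33.0% in normal water. Both flanks were thus higher while the 66-bp region was lower, and the next CHH region, 96 bp away, was higher by 13.3 points. The same held between Cs5g08170 and Cs5g08180 at chromosome 5, 5336248 to 5336334. The region differed by -22.3 points, while a region 60 bp away was higher by 21.8 points. The promoter stood at 31.6% in light drought against 23.7% in normal water, and the downstream flank at 30.4% in light drought against 26.7% in normal water.

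A pair of lower regions had a downstream flank that was lower too. Cs7g18890 and Cs7g18900, which share the same listed levels, stood at 19.8% under light drought and 35.8% under normal water downstream. The region there, at chromosome 7, 14847951 to 14847999, differed by -24.1 points, and the promoter of Cs7g18910 was at 13.3% in light drought and 13.4% in normal water. In CHG the same downstream flank was listed at 100% under light drought and at 0 under normal water. How many cytosines and reads stand behind that value is unknown. On the unplaced sequence, at 9314440 to 9314520, the region between orange1.1t05953 and orange1.1t00764 differed by -21.2 points. There the downstream flank stood at 46.4% in light drought and 56.8% in normal water, while the promoter stood at 30.4% in light drought and 28.4% in normal water. The other lower regions differed by less. Between Cs2g13340 and Cs2g13350 (chromosome 2, 10038457 to 10038546) the difference was -11.9 points, the promoter stood at 28.4% in light drought and 26.3% in normal water, and the downstream flank at 15.8% in light drought and 11.2% in normal water. Between Cs7g21070 and Cs7g21080 (chromosome 7, 18251712 to 18251796) the difference was -8.92 points, and both flanks were higher in light drought.

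The flanks themselves carried more CHH methylation under light drought. Promoters that hold one of the regions averaged 19.7% under light drought and 15.2% under normal water, a mean difference of 4.58 points (SD 3.80 over 57 genes), or 30.2% more. They ranged from 2.04 to 48.5% under light drought and from 0.96 to 35.3% under normal water, and the ranges of the libraries overlap widely. Of the 57 promoters 51 were higher and 6 lower, while 69.6% of the promoters of all 29073 genes were higher. Among genes with a promoter-only CHH region the share was 88.5%, close to the 89.5% here. Over all genes the promoter difference was 2.40 points, and over the 8344 genes with a promoter-only CHH region it was 4.42 points.

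In the downstream flanks the values were of similar size. The 60 genes on that side averaged 23.6% under light drought and 18.5% under normal water, a mean difference of 5.12 points (SD 6.98 over genes), or 27.7% more. Their range was 0.73 to 82.4% under light drought and 0.35 to 79.8% under normal water. Of the 60 flanks 54 were higher and 6 lower, against 51.9% higher over all genes, many of which are listed at 0 in both libraries. Among genes with a downstream-only CHH region 87.6% were higher, close to the 90.0% here. The mean difference was 4.0 points over the 5514 genes with a downstream-only CHH region and 1.52 points over all genes. The difference reached at least 10 points upward in 5 promoters (8.77%), where 6.36% of all genes reached it, and in 9 downstream flanks (15%), where 3.81% did. Among genes with a promoter-only CHH region 10.4% of promoters reached it. Among genes with a downstream-only one 8.07% of downstream flanks did. The difference reached 10 points downward in 0 promoters (0.729% of all genes) and 3 downstream flanks (0.626%). Those were the flanks of Cs7g18890 and Cs7g18900, which share their values, and of orange1.1t00764.

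**Figure D3:**
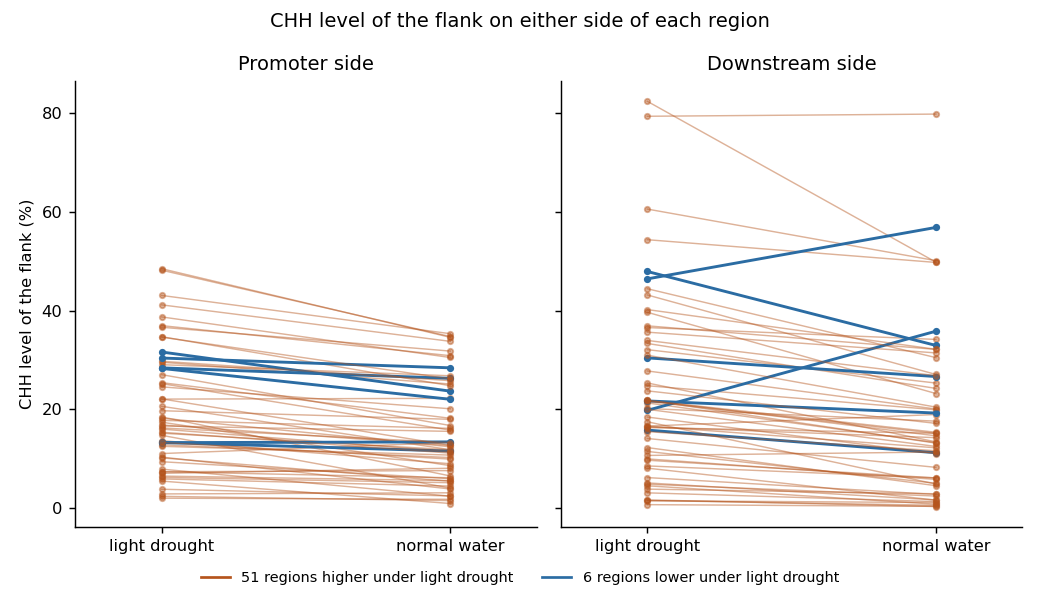
CHH level, in percent, of the promoter (left) and of the downstream flank (right) beside each of the 57 regions, under light drought and normal water, 1 line per region. Orange lines belong to the 51 higher and blue lines to the 6 lower regions, and where a region has 2 genes downstream their mean is drawn. Most lines are higher at light drought, including 5 of the 6 blue lines on the promoter side and 4 on the downstream side.

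Ranked by the smaller of the flank differences, 3 pairs came first. Between Cs2g14900 and Cs2g14890, at chromosome 2, 11805663 to 11805766, the promoter stood at 17.4% under light drought and 8.63% under normal water, and the downstream flank at 39.7% in light drought and 23.2% in normal water. The region itself was higher by 12.8 points. Between Cs4g18710 and Cs4g18700, at chromosome 4, 18258370 to 18258415, the promoter stood at 25.2% in light drought and 15.8% in normal water and the downstream flank at 21.9% in light drought and 13.2% in normal water, with a region higher by 16.5 points. Between Cs7g23590 and Cs7g23580, at chromosome 7, 22261898 to 22261961, the promoter was at 43.1% in light drought and 35.3% in normal water and the downstream flank at 40.2% in light drought and 32.2% in normal water. The region there was higher by 29.3 points, and both flanks had CHG levels of 88.6% or more in both libraries.

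Flanks that differed in opposite directions were few. Both flanks were higher in 47 pairs and both lower in 1. The promoter alone was higher in 4 pairs, and the downstream flank alone in 5. The widest contrast was between Cs3g26370 and Cs3g26380, at chromosome 3, 27703772 to 27703813. The promoter there stood at 18.5% under light drought and 6.54% under normal water, while the downstream flank stood at 16.6% in light drought and 19.0% in normal water. Between Cs2g18480 and Cs2g18490, at chromosome 2, 15218979 to 15219078, the promoter stood at 7.07% in light drought and 8.10% in normal water and the downstream flank at 25.4% in light drought and 13.4% in normal water. The region between Cs2g18480 and Cs2g18490 had the highest uncorrected p-value of the 57, at 0.0449, and 98 of its 100 bp lay in the downstream flank. Next came the region between Cs7g27820 and Cs7g27810, at 0.0401. Regions with a p-value of 0.05 or above are not in the list, so none just outside it can be shown.

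The level on one side of a region told little about the level on the other. Across the 57 pairs, Pearson's r between promoter and downstream levels was -0.16 in light drought and -0.07 in normal water, and -0.01 between their differences. These are descriptions over pairs within the same 2 libraries. The promoter was the more methylated flank in 29 pairs under light drought and in 27 under normal water. In 4 pairs, named after their values were seen, the promoter had at most 5% CHH in both libraries. They were Cs3g23330, Cs4g05170, Cs5g02770 and Cs9g07350, and the downstream flanks across their borders stood at 21.6 to 36.6% under light drought and 15.2 to 34.2% under normal water. In 8 pairs the downstream flank was at most 5% in both, and the promoters across from them stood at 10.2 to 48.5% in light drought and 3.90 to 34.6% in normal water. All 12 of these regions were higher under light drought.

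The sign of a region matched that of its flanks in most pairs. It was the same as that of the promoter in 47 of 57 pairs, as that of the downstream flank in 50, and as both in 44. The higher regions shared it with both flanks in 43 of 51. The lower regions shared it with both in 1 of 6, with the downstream flank only in 1, and with neither in 4. Where the larger part of the region was promoter, the promoter had the same sign in 26 of 30 pairs and the downstream flank in 24. Where it was downstream, the downstream flank had the same sign in 26 of 27 and the promoter in 21. Since most flanks and most regions were higher, matching signs are common in any case. The sizes were only loosely related, with Pearson's r of 0.15 between the differences of region and promoter and 0.33 between those of region and downstream flank over the 57 pairs. By rank (Spearman) the values were 0.15 for the promoter and 0.20 for the downstream flank. In 50 pairs the difference of the region was above those of both flanks. The regions were listed for their difference, and each flank level includes bases beyond the region, so this follows in part from the choice.

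**Figure D4:**
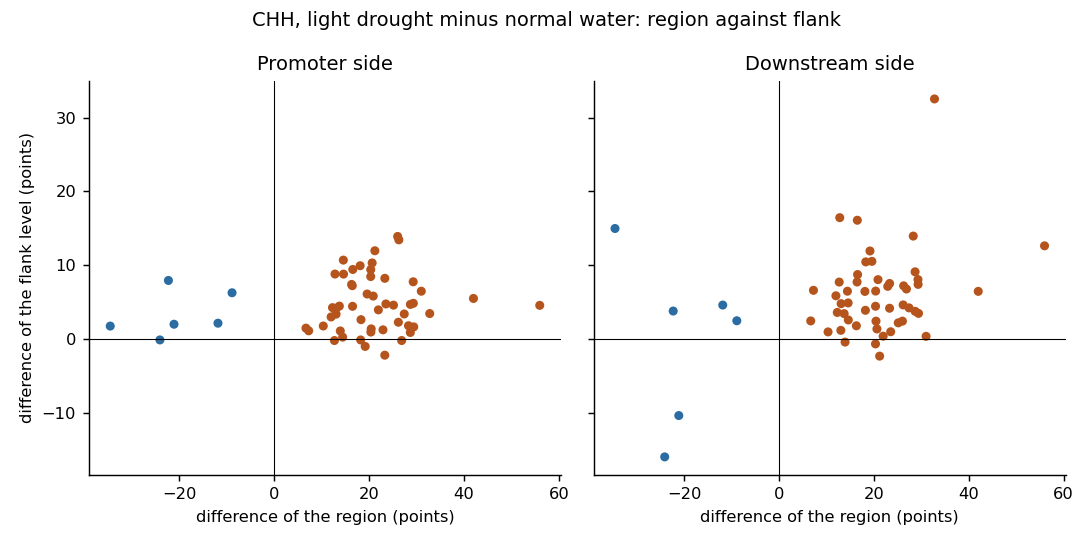
CHH difference of each of the 57 regions (horizontal, percentage points) against that of the promoter (left) and downstream flank (right) beside it (vertical, percentage points), light drought minus normal water. Higher regions are orange and lower ones blue. In the right panel Cs3g15530 stands apart at 32.6 points, and 2 of the 6 blue points lie below 0.

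The other flanks and the bodies of the same genes differed less. Genes on the promoter side had a mean difference of 1.70 points in their own downstream flank, at 12.0% in light drought and 10.3% in normal water, and of 0.376 points in the gene body, at 3.32% in light drought and 2.94% in normal water. Genes on the downstream side had 2.53 points in their own promoter, at 9.38% in light drought and 6.85% in normal water, and 0.599 points in the body, at 5.12% in light drought and 4.52% in normal water. With the sign kept, the promoter difference was above that of the far flank in 42 of 57 genes on the promoter side and below it in 14. Of those far flanks, 17 were listed at 0 in both libraries. On the downstream side the signed difference of the flank at the region was above that of the far flank in 41 pairs and below it in 16. These counts compare signed differences, not their sizes. The flank at the region was chosen for holding a listed difference, and the other flank was not. A larger difference at the region thus follows in part from the choice. Over all genes the mean difference was 1.52 points downstream, 2.40 in the promoter and 0.425 in the body. Genes with a promoter-only CHH region had 1.65 points downstream, and genes with a downstream-only one had 2.60 in the promoter. No gene body differed by 10 points in CHH, where 0.757% of all gene bodies were higher and 0.368% lower by that size. The far-flank mean on the downstream side includes the promoter of orange1.1t05570, listed at 48.3% under light drought and at 0 under normal water.

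Most of these genes were not themselves densely methylated. Of the 116 genes, 60 had less than 20% CG and CHG in the body, 33 had at least 20% CG with less CHG, and 23 had at least 20% CHG, on the mean of both libraries. Those shares were 51.7%, 28.4% and 19.8%, next to 41.2%, 42.3% and 16.5% of all genes. Among the 9 genes on the promoter side with a CHG-rich body was Cs5g08170, at 80.6% under light drought and 77.1% under normal water, and its neighbour Cs5g08180 stood at 68.6% in light drought and 72.8% in normal water.

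**Figure D5:**
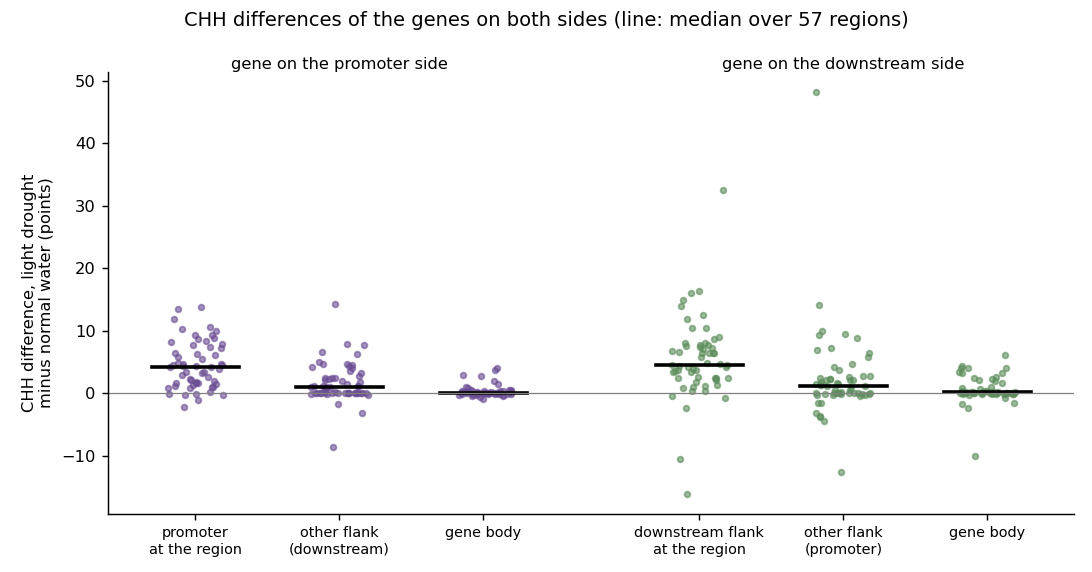
CHH difference (percentage points, light drought minus normal water) of the flank at the region, of the other flank and of the body, for the gene on the promoter side (left) and on the downstream side (right), 1 point per region, horizontal position within a column random. Lines are medians over the 57 regions, at 4.23, 1.04 and 0.08 points on the left and 4.6, 1.25 and 0.16 points on the right.

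In the same promoters, CG and CHG differed by fewer points than CHH. Promoters at the regions averaged 44.6% CG in light drought and 42.0% in normal water, a mean difference of 2.58 points. In CHG they averaged 34.3% in light drought and 32.7% in normal water, a difference of 1.57 points. Downstream flanks averaged 54.9% CG in light drought and 51.3% in normal water, a difference of 3.57 points. In CHG they averaged 46.7% in light drought and 39.5% in normal water, a difference of 7.13 points. Differences of at least 20 points in CG were found in 0 promoters upward and 0 downward, next to 2.63% and 1.65% of all genes, and in 7 downstream flanks upward and 1 downward, next to 3.67% and 1.61%. In CHG they were found in 1 promoter upward and 0 downward, next to 2.08% and 1.2% of all genes, and in 6 downstream flanks upward and 1 downward, next to 1.5% and 0.977%. These counts are over genes. In 3 regions 2 genes shared the downstream side, so 1 flank can count under both genes, as at Cs7g18890 and Cs7g18900. The mean CHG difference downstream rests in part on genes listed at 0 in one library, such as Cs7g18890 and Cs7g18900, and was 3.97 points over the 56 genes above 0 in both. With 1 value per region the mean CHG difference downstream was 5.19 points. Relative to normal water, promoters at the regions were 30.2% higher in CHH, 6.13% in CG and 4.80% in CHG. Downstream flanks were 27.7% higher in CHH, 6.95% in CG and 18.0% in CHG. Over all genes promoters were 23.2% higher in CHH, 4.63% in CG and 5.72% in CHG. Downstream flanks of all genes were 21.5% higher in CHH, 6.25% in CG and 4.57% in CHG. The flanks at the regions were chosen for a CHH difference, and CHH differed most in relative terms over all genes as well.

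Regions of other contexts overlapped 2 of the crossing regions. A CHG region overlapped 1 of the 57 (1.75%), at Cs5g28930 as described, next to 0.647% of promoter-only and 0.721% of downstream-only CHH regions. A CG region overlapped 1 other (1.75%), next to 0.363% and 0.269% of those regions. A single region in each context gives no ground to call the shares different. Between Cs9g07350 and Cs9g07340 the CHH region at chromosome 9, 4528079 to 4528151, was higher by 14.4 points. The CG region at 4528008 to 4528092, which shares 14 bp with it, differed by -17.6 points in the authors' deposited table. The contexts thus had opposite signs at that border, but the CG region held only 10 cytosines and neither region had a corrected p-value under 0.05.

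In 40 of the 57 pairs the same promoter or downstream flank held further CHH regions, 118 in all and up to 7 in a pair, and in 17 pairs there was none. Of the 118, 95 were higher and 23 lower, close to the 80.2% higher and 19.8% lower of the whole list. Beside the 51 higher regions 84 of 102 had the sign of the region, while beside the 6 lower ones 5 of 16 did and 11 were higher. The nearest CHH region lay at a median of 177 bp (quartiles 32 and 1517 bp), next to 227 bp over all CHH regions. It had the same sign in 43 of the 51 higher and in 1 of the 6 lower regions. Over all CHH regions these shares were 82.0% for the higher and 24.0% for the lower ones.

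Only the gene Cs7g27820 had a crossing region on each side. The region in its promoter, at chromosome 7, 28514851 to 28514980, was higher by 18.1 points, and the region in its downstream flank, at 28518972 to 28519109, by 26.0 points, with 3991 bp between them. Its promoter stood at 34.7% CHH in light drought and 24.8% in normal water, its body at 13.9% in light drought and 9.82% in normal water, and its downstream flank at 4.87% in light drought and 2.47% in normal water. The downstream flank of its neighbour Cs7g27810 was at 21.8% in light drought and 15.4% in normal water. The promoter of the neighbour on the far side, Cs7g27830, was at 48.5% in light drought and 34.6% in normal water, the largest difference among the 57 promoters (13.9 points). All 4 of these flanks and the body were higher under light drought.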

How the data were processed

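The authors deposited methylation levels in percent per gene part and context, 1 table per library, per the file headers, and 1 table of differential regions per context. In those, the difference in level is a signed score in percentage points, beside the authors' p-value without and with correction, per the file headers. Bismark 0.20.1, bedtools 2.26.0 and SAMtools 1.4 appear in the submitters' processing notes. The sources used here give no region caller, genome build, depth or definition of the features. The tables' 6 columns of levels by group were left out because their names match neither library. The direction was taken from the order in the tables' name, and the labelled promoter and downstream levels had the same sign as the region in 47 and 50 of 57 pairs. Starts are printed counted from 1, and lengths are end minus start of the files' 0-based starts.

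The 57 regions were found by their annotated elements, paired with the gene listed at the same place in the row. Where 2 genes shared the downstream side, their mean was used for the region. A gene part counted as differing at 10 points in CHH and 20 in CG and CHG. Regions overlapped if they shared at least 1 bp. The 29073 genes listed in both libraries were used. Sides and distances from the border were read from other listed regions, an analysis chosen after the data were seen.

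The members, lists and named regions were chosen with earlier results of these data known. The regions named by rule were the 5 highest and 5 lowest differences, the 5 lowest p-values, corrected p-values under 0.05, the 3 longest, the 3 with both flanks most along the region (by the smaller difference), the 3 with the most opposed flanks and the 2 highest p-values. The last of the 6 lower regions and regions named for low flanks, overlaps or position were added after their values were seen. Gaps with the most regions were to be named too, but none held more than 1. The element rule, the pairing of sides, the size rule, the overlap and the nearest-region step were run on planted cases, most of them set into the deposited regions and levels. The rule recovered 200 of 200 planted regions among 4998. The planted regions carried the words that the rule looks for, so this shows only that the step runs as written. The tools were Python 3.11.15 with pandas 2.3.3, numpy 2.4.6, scipy 1.17.1 and matplotlib 3.10.9.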

Additional observations from a re-analysis of the deposited data

How the results depend on the processing

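No paired analysis was possible because light drought and normal water are 1 library each, so leaving out a library would leave nothing to compare. Shares counted as moved when they left the 95% Wilson interval of the main share, and other values when they changed by more than 1.5 times. The interval serves only as a yardstick, since regions are not replicates. By this measure 3 of 35 recalculated values moved, 32 stayed and 0 turned sign. With a corrected p-value under 0.05 the share of higher regions was 100%, over 2 regions. With an overlap of at least 50% of the region, 0 regions overlapped a CG region. Over genes above 0 in both libraries the CHG downstream difference was 3.97 points. The share of higher regions lay between 87.5 and 92.9% with an uncorrected p-value under 0.01, differences of at least 20 points, at least 15 cytosines or numbered chromosomes only. Taking 1 value per gap, allowing other features and requiring pairs with 1 region left the 57 regions as they were. Requiring levels above 0 in both libraries likewise left the CHH flank differences and the sign matches as they were, since no CHH flank at the regions was at 0. These settings could not move a value, yet they count among the 32 that stayed. Without read counts, the precision of each level is unknown.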
